A study of Bos taurus with 20 samples.

Results

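ZP2, ZP3 and ZP4 encode glycoproteins of the zona pellucida, the extracellular coat of the mammalian egg. They were taken as the array's non-control probes whose gene name equalled ZP2, ZP3 or ZP4, which gave 3 of 22550 genes or transcripts and 6 of 61325 probes, 2 probes per gene. Gene expression had been measured in immature bovine ovarian follicle cells on 20 customised Agilent arrays, each hybridised with Cy3-labelled RNA from 1 sample. The groups of 4 arrays were theca cells (TH) scraped from the walls of antral follicles, granulosa cells (GC), cumulus cells (CC), oocytes, and CC detached after 4 h of in vitro maturation (IVM) of the cumulus-oocyte complex. The study's methods call the replicates of the first 4 groups biological, and neither the number of animals or oocytes behind a sample nor the origin of the IVM replicates was given. The follicle wall and the cumulus-oocyte complex hold more than 1 cell type, so every sample is a bulk one.

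The growing oocyte secretes the zona glycoproteins, which share a ZP domain through which they polymerise into filaments. The finished coat takes part in sperm binding and is altered after fertilisation so that further sperm are kept out. Cumulus cells send projections through the zona and form gap junctions with the oocyte, and GC and TH lie further out in the follicle.

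Per the file annotation on bovine build UMD 3.1, ZP2 (transcript ENSBTAT00000015289) spans chr25:19228387-19240185, ZP3 (ENSBTAT00000019756) spans chr25:34960635-34968376 and ZP4 (ENSBTAT00000036982) spans chr28:10664110-10671377. The exon of a probe is not given by the files. Probe sequences are shown because the 2 probes of ZP3 did not behave alike in the somatic cells. AATAAA, the canonical polyadenylation signal, is in capitals, and of 60 bases a whole probe or its first or last 30 bases are given 5′ to 3′.
ZP2 probe 1, last 30 bases: ctaattggattttcAATAAAatgtggaagt
ZP3 probe 1, whole: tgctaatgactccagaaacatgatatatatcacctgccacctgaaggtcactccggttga
ZP3 probe 2, last 30 bases: ccctgtgtctgcttcccAATAAAagaagaa
ZP4 probe 1, last 30 bases: tgttAATAAAaccagattgcactactagtc
ZP4 probe 2, first 30 bases: ttgttcatgtcctacctggccattaggaaa
The 2 ZP2 probes shared 59 of 60 bases with an offset of 1 base and are close to a repeat of the same measurement. The ZP4 probes shared 34 bases, whereas the ZP3 probes did not overlap. AATAAA, read on the printed strand, was found in both ZP2 probes, ZP3 probe 2 and ZP4 probe 1, and in 8.35% of the 61325 probes of the array. No run of 20 bases of a zona probe occurred in a probe of another gene on either strand (0 genes).

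Values are log2 signals minus the 75th percentile of the array, where 0 is that percentile, and each gene is the median of its spots. A level is compared with other arrays for the same probe or gene, never with another gene. Oocyte replicate 2 had 49.3% of probes well above background, each other array had 54.2% to 68.8%, and no spot was saturated. The marker lists followed the labels. The summed linear signal of 5 theca markers was 575 to 830 in TH and at most 115 in GC, 32.6 in CC and 1.70 in oocytes, in multiples of the 75th percentile. The summed signal of 5 granulosa and cumulus markers was 123 to 465 in GC and 394 to 407 in CC, against 19.6 to 35.3 in TH and 2.65 to 3.47 in oocytes. That of 8 oocyte markers was 315 to 389 in oocytes and 0.270 to 2.83 in TH, GC and CC. Replicates 1 and 2 of TH, GC, CC and oocytes shared 1 slide and replicates 3 and 4 another, and the 4 IVM arrays were alone on the third slide.

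The 3 zona genes were higher in the oocyte than in TH, GC or CC by 7.24 to 10.9 on the log2 scale, and each oocyte array lay above each somatic array for each gene. Against the mean of the somatic cell types, the oocyte difference was 8.27 ± 0.44 (SE, n = 4 arrays per group) for ZP2, 8.32 ± 0.30 for ZP3 and 9.79 ± 0.49 for ZP4. The adjusted p-values were 8.92e-11, 8.12e-13 and 4.75e-11 (limma, Benjamini-Hochberg over 22550 genes). In that comparison 32.9% of all genes were called higher in the oocyte, and for 25.3% of genes the 4 oocyte arrays lay above all 12 somatic arrays. Over all genes the median difference was -0.52, and it was 0.19 in the 10012 genes detected above background on each of these 16 arrays. Scaling to the array median instead gave 8.45 for ZP2, 8.49 for ZP3 and 9.97 for ZP4. Within slide 1 and slide 2 the differences were 8.24 and 8.30 for ZP2, 8.39 and 8.24 for ZP3, and 9.85 and 9.73 for ZP4. In bulk samples, fewer cells of a type and less RNA per cell cannot be told apart.

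**Figure D1:**
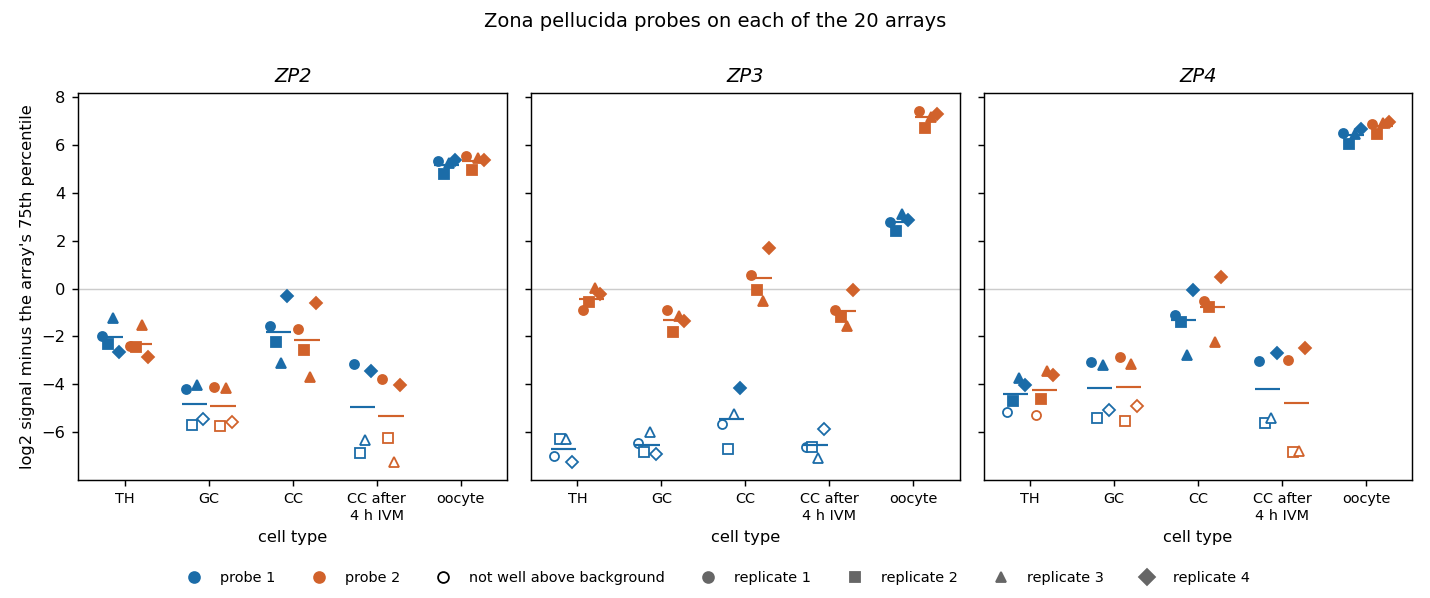
Log2 signal minus the array's 75th percentile (y) for both probes of ZP2, ZP3 and ZP4 on every array, by cell type (x). Each symbol is 1 array, the shape gives the replicate, open symbols were not well above background and lines are means of 4 arrays. The oocyte arrays sit above the others in each panel, and ZP3 probe 1 is open on 15 of the 16 somatic arrays while probe 2 is filled on all of them.

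ZP2, which in the mouse carries a sperm-binding region and is cleaved after fertilisation, measured 5.44, 4.89, 5.36 and 5.39 in oocyte replicates 1 to 4. In CC it measured -1.64, -2.39, -3.40 and -0.45, and in TH -2.19, -2.38, -1.36 and -2.74. In GC it measured -4.15, -5.74, -4.08 and -5.52. The CC and TH arrays overlapped, and all 8 of them lay above the 4 GC arrays, of which replicates 2 and 4 were not well above background.

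ZP2 was thus higher in CC than in GC by 2.90 ± 0.54 (adjusted p = 0.00267) and higher in TH than in GC by 2.70 ± 0.54 (adjusted p = 0.00137). Because GC was at background on 2 of 4 arrays, these are bounds of at least 5.96-fold and at least 5.19-fold, which hold for the processed signal only. In the authors' deposited table CC minus GC was 1.80 and TH minus GC 1.48, and under normexp, a model-based background correction, they were 1.22 and 0.98, with all 4 values past the threshold and below those bounds. Among all genes 5.27% were called higher in CC than GC and 11.8% higher in TH than GC. CC and TH did not differ detectably, with a difference of 0.20 and a 95% confidence interval from -0.95 to 1.35 (adjusted p = 0.878). Without CC replicate 4 that difference was -0.31 (adjusted p = 0.758). Within slides 1 and 2 the CC to GC difference was 2.93 (adjusted p = 0.0973) and 2.88 (0.273), and the TH to GC difference was 2.66 (0.0373) and 2.75 (0.138), with 2 arrays per group. The oocyte difference was at least 899-fold over GC and was 173-fold over TH and 151-fold over CC. Over GC it was 9.25 on the log2 scale in the deposited table and 7.97 under normexp, both below that bound. Both ZP2 probes gave the same order, with oocyte minus somatic differences of 8.09 ± 0.43 and 8.45 ± 0.46, where 31.1% of probes were called higher.

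ZP3, a core component of zona filaments, measured 5.12, 4.57, 5.14 and 5.10 in oocyte replicates 1 to 4. In CC it measured -2.55, -3.37, -2.89 and -1.21, in TH -3.94, -3.43, -3.14 and -3.75, and in GC -3.66, -4.32, -3.58 and -4.13. The CC arrays lay above the GC arrays and overlapped TH, and TH overlapped GC. CC exceeded GC by 1.42 ± 0.36 (adjusted p = 0.0213) and TH by 1.06 ± 0.36 (adjusted p = 0.0360), where 17.4% of all genes were called higher in CC than TH. TH minus GC was 0.36 with an interval from -0.42 to 1.13 (adjusted p = 0.547).

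The small ZP3 differences among somatic cells depended on single arrays and on the probe. Without GC replicate 2, CC minus GC was 1.29 (adjusted p = 0.0654). CC minus TH lost its call without CC replicate 1 (1.08), CC replicate 4 (0.63), or TH replicate 1 (0.94), 2 (1.11) or 4 (1.00), at adjusted p of 0.0543 to 0.101. Within slides 1 and 2 CC minus GC was 1.03 (adjusted p = 0.366) and 1.80 (0.203), and CC minus TH was 0.73 (0.364) and 1.40 (0.136).

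ZP3 probe 2, which holds AATAAA, was well above background on all 20 arrays. It measured 7.45, 6.71, 7.18 and 7.33 in oocytes, 0.58, -0.04, -0.53 and 1.72 in CC, -0.89, -0.57, 0.02 and -0.24 in TH, and -0.87, -1.83, -1.16 and -1.35 in GC. ZP3 probe 1, without AATAAA, measured 2.79, 2.43, 3.10 and 2.88 in oocytes. In the somatic cells it was well above background on CC replicate 4 alone, at -4.14, and lay between -7.26 and -5.24 on the other 11 TH, GC and CC arrays. On TH, GC and the other CC arrays, probe 2 was thus the only ZP3 probe above background.

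The oocyte minus somatic difference was 7.60 ± 0.32 for ZP3 probe 2, or 194-fold (6.74 over CC, 7.59 over TH and 8.47 over GC on the log2 scale), and 9.03 ± 0.35 for probe 1, where only a bound of at least 245-fold can be given. The lowest probe 1 difference among the alternative runs was 5.83, below that bound. CC exceeded GC by 1.73 ± 0.39 with probe 2 (adjusted p = 0.0115 over 61325 probes) and by 1.10 ± 0.42 with probe 1 (adjusted p = 0.142), against 4.94% of probes called higher. CC minus TH was 0.85 ± 0.39 with probe 2 (adjusted p = 0.130) and 1.27 ± 0.42 with probe 1 (adjusted p = 0.0350), where 16.1% of probes were called higher, although probe 1 was below background on 7 of those 8 arrays. Since each probe has its own brightness, levels are not comparable between probes. Differences are comparable only where both probes are above background, which probe 1 was not on most somatic arrays.

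ZP4, a member of the ZP1-like branch of the family, measured 6.70, 6.27, 6.70 and 6.82 in oocyte replicates 1 to 4. In CC it measured -0.81, -1.08, -2.49 and 0.21. In TH it measured -5.22, -4.66, -3.57 and -3.83, and in GC -2.96, -5.48, -3.16 and -4.98. CC lay above every TH and GC array, whereas TH and GC overlapped, with 1 TH and 2 GC arrays not well above background. The share of all genes with such a separation of somatic groups was not computed, here or for ZP2 and ZP3.

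ZP4 was higher in CC than in GC by 3.10 ± 0.61 (adjusted p = 0.00379), at least 7.85-fold, and higher in CC than in TH by 3.28 ± 0.61 (adjusted p = 0.000545), or 9.70-fold. CC minus GC was 2.24 in the deposited table and 1.68 under normexp, both below that bound, and CC minus TH was 2.41 and 1.96, with all 4 past the threshold. TH minus GC was -0.18 with an interval from -1.47 to 1.12 (adjusted p = 0.859), and it was 0.22 without GC replicate 1, 0.15 without GC replicate 3 and 0.12 without TH replicate 1. Within slides 1 and 2 CC minus GC was 3.27 (adjusted p = 0.141) and 2.93 (0.220), and CC minus TH was 3.99 (0.0199) and 2.56 (0.108). The oocyte exceeded CC by 7.67 ± 0.61, or 203-fold, and GC by at least 1595-fold. Over GC the difference was 10.27 on the log2 scale in the deposited table and 9.08 under normexp, both below that bound. The ZP4 probes agreed, with CC minus GC at 2.85 ± 0.59 and 3.36 ± 0.64.

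The order of group means was thus oocyte, CC, TH and GC for ZP2 and ZP3, and oocyte, CC, GC and TH for ZP4. The neighbours that did not differ detectably were CC and TH for ZP2, and TH and GC for ZP3 and ZP4. CC and TH were not reliably separated for ZP3 either, since the gene-level call was not met by probe 2 (adjusted p = 0.130), by Tukey's test (0.0715) or within either slide. Whether ZP2 and ZP4 differed from each other in the TH to GC change was not tested.

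**Figure D2:**
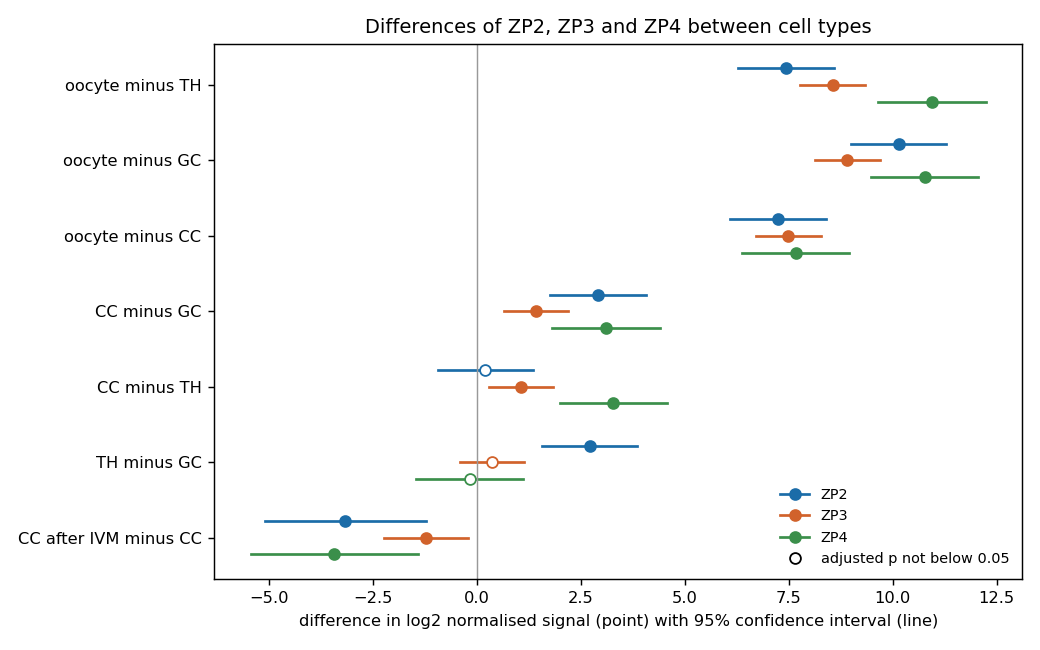
Differences between cell types in log2 normalised signal (x) for ZP2, ZP3 and ZP4, with 95% confidence intervals from limma, for 7 comparisons (y). Filled points passed an adjusted p of 0.05. The 9 oocyte differences lie between 7.24 and 10.9, and the TH minus GC point is filled for ZP2 (2.70) but open for ZP3 and ZP4.

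After 4 h of IVM, ZP2 in CC measured -3.46, -6.56, -6.78 and -3.75 in IVM replicates 1 to 4, and ZP4 measured -3.01, -6.22, -6.11 and -2.59. For both genes IVM replicates 2 and 3 were not well above background and replicates 1 and 4 were. ZP4 lay below each of the 4 CC arrays on all 4 IVM arrays, with IVM replicate 4 at -2.59 close to CC replicate 3 at -2.49. ZP2 lay below them in the same way, with IVM replicate 1 at -3.46 close to CC replicate 3 at -3.40. ZP3 measured -3.75, -3.91, -4.32 and -2.97 and overlapped CC. How many of all genes lay below CC on all 4 IVM arrays was not counted.

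ZP2 in CC changed by -3.17 ± 0.87 with IVM (adjusted p = 0.0181), at least 4.81-fold lower, and ZP4 changed by -3.44 ± 0.90 (adjusted p = 0.0147), at least 6.90-fold lower. The changes were smaller than these bounds in the deposited table (-1.68 for ZP2 and -2.17 for ZP4) and under normexp (-0.94 and -1.43), with all 4 past the threshold. ZP3 changed by -1.24 ± 0.45 (adjusted p = 0.0487). Among all genes 15.5% were called lower after IVM and the median gene shifted by 0.37, or by -0.05 over the same 10012 genes. ZP2 lost its call without CC replicate 1 (-3.06, adjusted p = 0.0504), and leaving out single arrays gave -3.73 to -2.62 for ZP2 and -4.07 to -2.86 for ZP4. Each ZP2 and ZP4 probe passed over all probes (adjusted p = 0.0214 to 0.0282). With 1 of the 8 arrays left out, ZP2 probes 1 and 2 lost their call in 4 and 3 runs and each ZP4 probe in 2, at adjusted p up to 0.0678. ZP3 lost its call without CC replicate 1 (-1.25), 3 (-1.36) or 4 (-0.80) and without IVM replicate 1 (-1.23), 2 (-1.18) or 3 (-1.04). Neither ZP3 probe passed over all probes, at -1.36 ± 0.50 for probe 2 (adjusted p = 0.0530) and -1.11 ± 0.51 for probe 1 (adjusted p = 0.102), where 45.6% of probes were called in either direction. Because the IVM arrays were alone on their slide, IVM and slide cannot be told apart.

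Several other oocyte transcripts moved alongside the zona genes across the somatic arrays, unevenly between genes. Of the 9 oocyte markers chosen outside the zona, 8 were on the array, without MOS. These were GDF9 and BMP15, which encode growth factors secreted by the oocyte, NLRP5 and OOEP of the subcortical maternal complex, ZAR1, DPPA3, NPM2 and the importin gene KPNA7. All 8, which had been listed as oocyte genes, were higher in the oocyte, by 6.01 (OOEP) to 11.3 (NLRP5), beside 32.9% of all genes. From GC to CC, 7 of the 8 were called higher, without BMP15 (0.50, adjusted p = 0.383), against 5.27% of all genes. From TH to CC, 6 were called higher, without NPM2 (-0.31) and OOEP (-0.32), against 17.4% of all genes. From GC to TH, where 11.8% of all genes were called higher, the 2 called were NPM2 (2.61 ± 0.69, at least 3.94-fold, adjusted p = 0.0104) and OOEP (2.35 ± 0.44, adjusted p = 0.000877), which, like ZP2, were not called between CC and TH.

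CC replicate 4 had the highest level among the CC arrays for ZP2, ZP3 and ZP4 and for 8 of the 8 oocyte markers. The share of all genes that were highest on this CC array was not computed. Relative to the mean log2 level of each gene in oocytes, CC replicate 4 held 1.90% of ZP2, 1.36% of ZP3 and 1.17% of ZP4, beside 1.06% of KPNA7, 0.472% of NLRP5 and 0.530% of GDF9. The other CC arrays held 0.246% to 0.834% of ZP2, 0.306% to 0.539% of ZP3 and 0.181% to 0.579% of ZP4, and 0.112% to 0.293% of KPNA7. The ZP3 shares average both probes, of which probe 1 was at background on the other CC arrays. Its granulosa and cumulus marker sum was 403, among 394 to 407 in the group. The share of oocyte RNA in the CC samples, and its part in these levels, was not tested.

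In TH, ZP2 stood at 0.387% to 1.01% of its oocyte level, while ZP4 stood at 0.0272% to 0.0852%. The NPM2 level in TH was 0.0882% to 0.381% of that of oocytes and the OOEP level 1.22% to 5.15%, whereas NLRP5 stood at 0.0160% to 0.0250%. Theca replicate 3 was the highest TH array for ZP2, ZP3, ZP4, NPM2 and KPNA7. It was the lowest for OOEP and NLRP5 and neither for BMP15. It was also the highest for GDF9, ZAR1 and DPPA3, which were above background on 0 TH arrays.

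After IVM, 5 of the 8 oocyte markers were called lower and 0 higher, beside 15.5% of all genes lower and 30.3% higher, with KPNA7 at -2.99 ± 0.66 (adjusted p = 0.00678), at least 3.59-fold lower, and DPPA3 at -2.11 ± 0.55 (adjusted p = 0.0154), at least 1.40-fold lower. NPM2 (-1.48, adjusted p = 0.0871), GDF9 (-0.75, 0.203) and BMP15 (-0.21, 0.675) were not called. The 5 became 2 to 4 when single arrays were left out (2 without CC replicate 1, or IVM replicate 2 or 3, and 3 without CC replicate 3 or 4, or IVM replicate 4). The summed signal of all 8 markers was 1.06 to 2.83 in CC and 0.409 to 1.06 after IVM. Bright probes weigh most in that sum, and OOEP had the largest mean log2 signal of the 8 in CC (-0.50) and after IVM (-1.53). The part of oocyte RNA in the lower ZP2 and ZP4 was not tested.

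**Figure D3:**
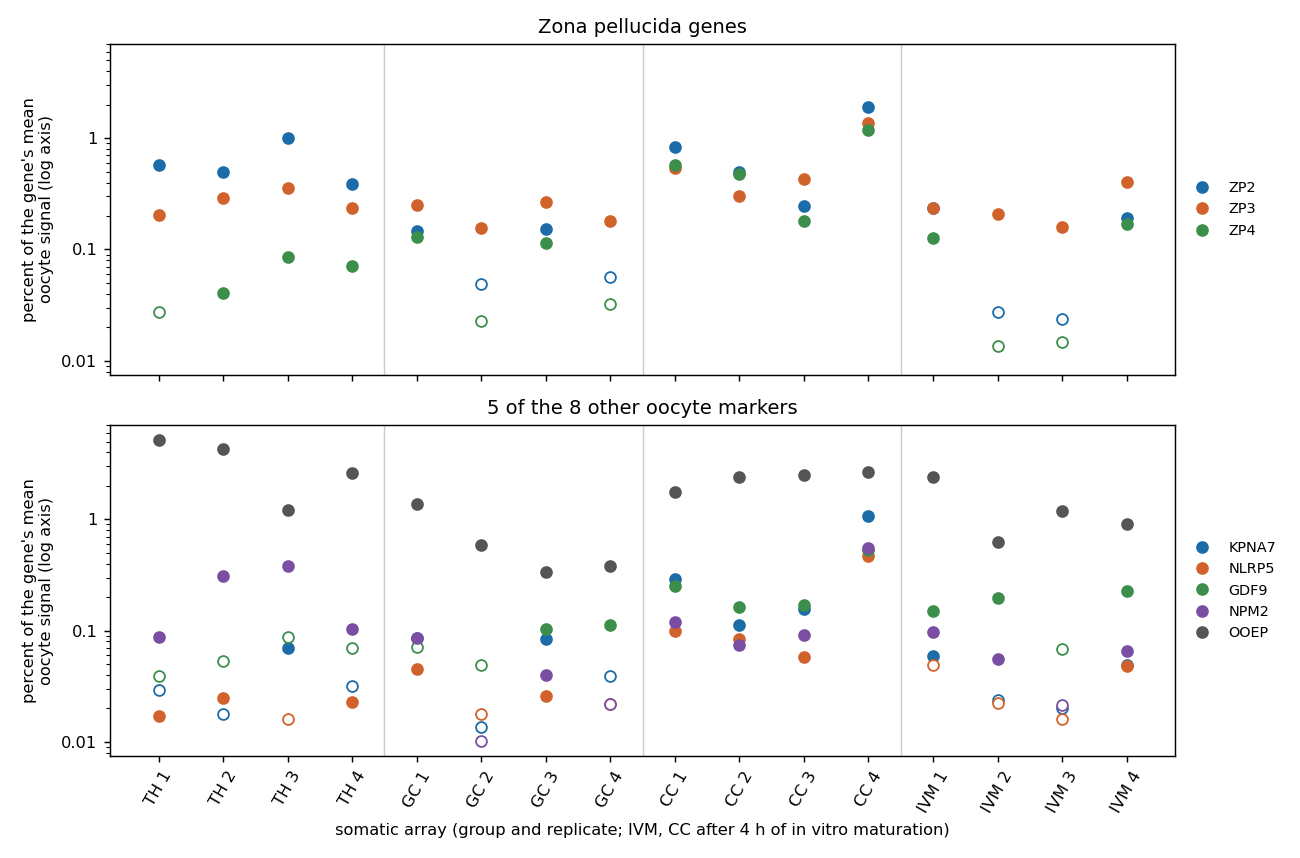
Level on each somatic array (x) as a percentage of the mean oocyte level of the same gene (y, log axis), for the zona genes (top) and 5 of the 8 other oocyte markers (bottom). Each point is 1 array and open points were not well above background. CC replicate 4 is the highest CC array for each gene, with ZP2 at 1.90%, and ZP2, NPM2 and OOEP are higher in TH than in most GC arrays.

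The transcription factors tied to zona gene expression were mostly oocyte-high as well. Of 9 listed regulators, 8 were on the array, without SOHLH2. Of those, 6 were higher in the oocyte, 1 was lower and 1 was not called, with a median difference of 4.74 against -0.52 over all genes and 32.9% of genes called higher. FIGLA, which activates the zona genes in the mouse, was higher by 10.2 ± 0.57 (at least 793-fold, adjusted p = 1.74e-10) and was well above background on all 4 TH arrays but on 1 GC and 1 CC array. TBPL2, an oocyte form of the TATA-binding protein, was higher by 7.64 ± 0.12 (at least 46.2-fold), and NOBOX, an oocyte homeobox factor, by 7.05 ± 0.35. The lowest differences among the alternative runs were 7.57 for FIGLA and 3.61 for TBPL2, below their bounds. TCF3, an E protein and known FIGLA partner, was higher by 3.71 ± 0.18, whereas its relative TCF12 was lower (-4.08 ± 0.11).

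Genes whose products modify the zona were split. Of 9 tested, 3 were higher in the oocyte, 5 were lower and 1 was not called, beside 32.9% higher and 38.3% lower over all genes, with a list median of -0.94. ASTL encodes ovastacin, the cortical granule protease that cleaves ZP2 in the mouse, and was higher by 6.97 ± 0.22, at least 31.9-fold. PLG, the plasminogen gene, was higher by 6.99 ± 0.33, at least 38.9-fold. Both bounds hold for the processed signal only. The lowest differences among the alternative runs were 3.02 for ASTL and 3.28 for PLG, below those bounds. OVGP1, the oviduct glycoprotein that coats the zona after ovulation, was lower (-4.75 ± 0.26) and was above background on 1 oocyte array, with CC at least 17.5-fold higher. Also lower was PLAT, a plasminogen activator (-3.84 ± 0.46). FURIN, a convertase able to cleave zona precursors, was higher by 2.27 ± 0.23. FETUB, an inhibitor of ovastacin, did not pass (0.31 ± 0.23, adjusted p = 0.233), but rose in CC with IVM by 4.12 ± 0.28 (at least 4.20-fold, adjusted p = 9.95e-06), where 30.3% of all genes were called higher. TCF3, TCF12, PLAT, FURIN and FETUB were added to the named genes after their values were seen.

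Other genes with a ZP domain did not share the pattern. Of 13 listed, 9 were on the array, and 1 was higher, 5 lower and 3 not called, with a median of -0.90, beside 32.9% higher, 38.3% lower and a median of -0.52 over all genes. ZPLD1, among the 5 lower, was above background on 0 arrays. ENG, another of the 5, was above background on 4 TH, 2 oocyte and 0 GC or CC arrays. Its oocyte mean (-6.59) lay below the TH mean (-3.33) but above the means of GC (-6.82) and CC (-6.92). UMOD, also among the 5, was above background on 3 TH arrays and on 0 GC, CC or oocyte arrays. For UMOD, TH was at least 1.04-fold higher than oocytes. The calls of ENG and UMOD thus do not show lower levels than GC or CC. The gene that was higher was TECTB, known as an inner ear tectorin, at 10.4 ± 0.36 (at least 379-fold, adjusted p = 5.87e-13), with 4 oocyte arrays and 2 CC arrays above background. Its lowest difference among the alternative runs was 6.68, below that bound. Among the lower genes, GP2 (-2.21 ± 0.34) and DMBT1 (-1.95 ± 0.63) were not above background on any oocyte array, with GP2 at least 2.00-fold higher in CC and DMBT1 at least 7.12-fold higher in TH than in oocytes. DMBT1 lost its call without oocyte replicate 3 (-1.54, adjusted p = 0.0632) and within slide 1 (-0.50, adjusted p = 0.462). Of 6 gamete contact genes, 1 was higher, 1 lower and 4 not called, with a median of -0.79, beside the same shares of 32.9% higher and 38.3% lower over all genes. ZPBP, named for binding to the zona and known from sperm, was higher by 6.01 ± 0.36 (at least 32.8-fold), and the tetraspanin gene CD9 was lower (-1.71 ± 0.20). For ZPBP the lowest difference among the alternative runs was 2.84, below that bound.

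**Figure D4:**
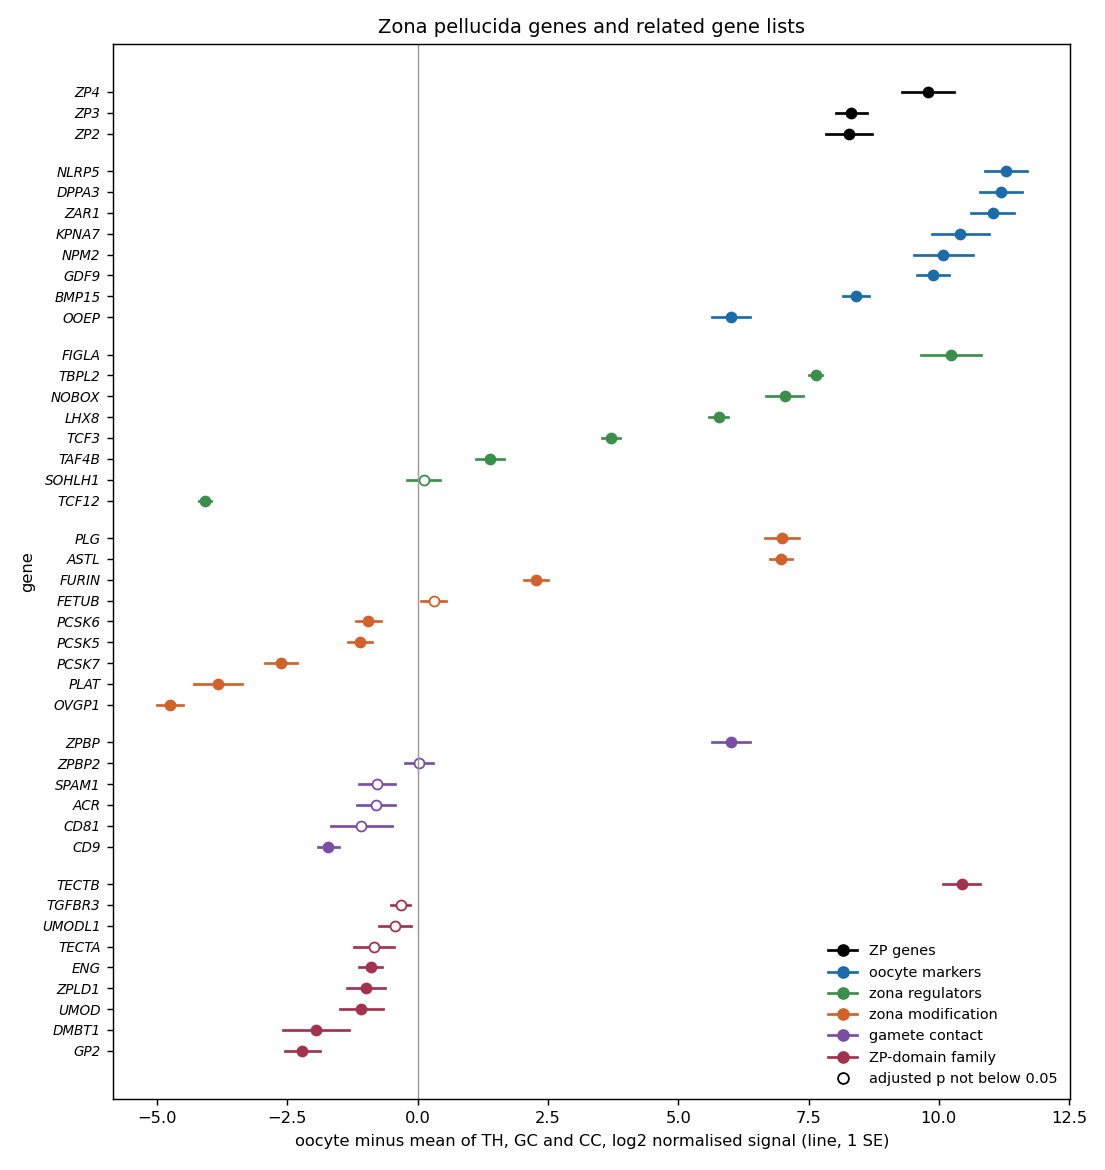
Difference in log2 normalised signal between oocytes and the average of the 3 somatic cell types (x) for the zona genes and the genes of 5 lists (y), with 1 SE, as measured also where the dim group was at background. Filled points passed an adjusted p of 0.05. The zona genes (8.27 to 9.79) lie among the oocyte markers (6.01 to 11.3), and TECTB (10.4) stands away from the other ZP-domain genes.

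The genes whose pattern was most like that of each zona gene were found by Pearson correlation over the 20 arrays among 13106 genes. Only named genes passing the background test on 3 or more oocyte arrays entered, so the pool was chosen where the zona genes are high. The coefficients are a description. The contrast of 4 oocyte arrays with 16 others sets most of each coefficient, and the arrays share slides. For ZP2 the closest genes were SYNJ2 (r = 0.976), NPM2 (0.973), MAEL, DDX25 and STXBP3. All of them except SYNJ2 (1 TH array) were above background on 4 of 4 TH arrays. For ZP3 they were ILDR1 (0.995), NLRP14 (0.995), CCDC135, NLRP5 and OGDHL. For ZP4 they were KPNA7 (0.987), NLRP5 (0.979), ZAR1L, C1orf51 and DPPA3. The zona genes correlated with each other at 0.952 to 0.971. Over the 16 somatic arrays alone, ZP4 correlated at 0.909 with KPNA7 and at 0.886 with NLRP5, whereas ZP2 correlated at 0.845 with NPM2 and at 0.281 with GDF9. Among the weaker values there, OOEP correlated at 0.329 with ZP3 and at 0.292 with ZP4, and BMP15 at 0.246 with ZP2.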

How the data were processed

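The deposited scanner files hold intensity per spot from Agilent Feature Extraction 10.7.3.1, per the file headers, with probes annotated on UMD 3.1. The processed signal, which the authors' software had background-corrected, was the main value, in log2 minus the 75th percentile of each array. Outlier spots were left out, each spot was taken as a probe, and a gene was the median of its spots, as in the study's methods. The authors' deposited table holds log2 median signals centred on the array median and was used as an alternative. The arrays give no depth, and the 4 arrays per group limit the precision.

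TH, GC, CC and oocytes (16 arrays) were fitted with limma 3.58.1 in R 4.3.3 without covariates, and CC with CC after IVM (8 arrays) separately, with Benjamini-Hochberg adjustment over all genes or probes and a threshold of 0.05. The fits were tested on simulated data. Where fewer than 3 of the 4 arrays of the dim group passed the background test, a bound was given, with the dim group raised to each array's lowest passing signal. Each bound holds for the processed signal only, and differences under other processing can lie below it. Same-numbered arrays were not treated as pairs, and the labels do not say that numbers mark a shared animal or day. Over 24 same-numbered pairs the deviations correlated at -0.27 to 0.44 (median 0.12), against -0.49 to 0.42 (median -0.01) for other pairs. For CC with IVM, 4 same-numbered pairs gave -0.22 to -0.04, against -0.17 to 0.41 for other pairs. The members and lists were chosen with earlier results of these data known. Named genes were the zona genes, their 5 closest genes and up to 3 genes per list by size. The 8 oocyte markers were all named, beyond that rule, and other additions are stated.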

Additional observations from a re-analysis of the deposited data

Results flagged for a closer look

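Oocyte replicate 2 stood apart from the other oocyte arrays for ZP2 (4.89 against 5.36 to 5.44), ZP3 (4.57 against 5.10 to 5.14) and ZP4 probe 2 (6.48 against 6.89 to 6.97). These were 3 of the 45 combinations of gene or probe and group examined, and chance flags about 1 in 20. On that array 49.3% of probes were well above background, against 62.6% to 68.8% on the other oocyte arrays, and its 75th percentile was the highest, at 2891 against 1521 to 1907. Its part in the lower zona values was not tested.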

How the results depend on the processing

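The oocyte differences of ZP2, ZP3 and ZP4 from the somatic mean and from each cell type kept direction and call under every alternative run. Against the somatic mean they ranged from 7.24 to 8.99 for ZP2, from 6.64 to 8.90 for ZP3 and from 8.62 to 11.2 for ZP4, with the lowest values under normexp background correction and the highest under quantile normalization. With the replicate number as a block, the differences stayed at 8.27, 8.32 and 9.79 (adjusted p = 4.87e-09, 8.94e-11 and 3.33e-09), the IVM changes at -3.17, -1.24 and -3.44, and no call for the zona genes changed. The slide as a block changed none of their calls either. Leaving out single arrays gave 2.40 to 3.38 (ZP2), 0.99 to 1.71 (ZP3) and 2.66 to 3.58 (ZP4) for CC minus GC, -0.31 to 0.68, 0.63 to 1.35 and 2.86 to 3.76 for CC minus TH, -0.62 to 0.22 for ZP4 in TH minus GC, and -3.73 to -2.62 (ZP2) and -1.52 to -0.80 (ZP3) after IVM. Within slides of 2 arrays per group, CC minus GC was 2.93 and 2.88 for ZP2, 1.03 and 1.80 for ZP3 and 3.27 and 2.93 for ZP4, none of which passed the threshold, nor did CC minus TH for ZP3 (0.73 and 1.40), and on slide 2 CC minus TH for ZP4 (2.56) and TH minus GC for ZP2 (2.75). ZP4 in TH minus GC turned to 0.37 on slide 2. ZP2 in CC minus TH turned to -0.23 with array weights and -0.00264 with the percentile over detected probes. ZP3 after IVM missed the threshold with the array median (-1.21), array weights (-1.01), the brightest probe (-1.36), normexp (-0.36) and quantile normalization (-1.38). ZP3 in CC minus GC missed it with normexp (0.68), and in CC minus TH with Tukey's test (1.06), the brightest probe (0.85), normexp (0.50) and the detected-probe percentile (0.86). ZP3 probe 1, below background, turned to 0.41 after IVM (adjusted p = 0.0256) and to -0.12 in CC minus GC under normexp. Among the lists, the 5 lower ZP-domain genes became 3 with the array median, quantile normalization or a background filter, 8 with array weights or normexp, 1 within slide 1 and 2 to 7 without single arrays (2 without oocyte replicate 3, 3 without oocyte replicate 1 or 4). The 1 lower gamete contact gene became 2 with the brightest probe, 3 with all 20 arrays, the deposited table, the detected-probe percentile or slide 2, 4 with array weights or normexp, and 1 to 3 without single arrays. The 5 lower oocyte markers after IVM became 2 with array weights or the deposited table, 3 with the brightest probe or quantile normalization and 1 under normexp, where 1 was higher, and 2 to 4 without single arrays. The 5 lower modification genes were 3 within slide 1, and the 1 lower regulator became 2 with the brightest probe and 3 with normexp. The causes were not tested. Levels near background limit every somatic comparison, and slide could not be fitted for IVM.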
